A study of Mus musculus with 54 samples.

Results

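The hippocampi of BalbC/J and C57BL6/J mice, a pair of inbred strains, were compared on 6 of the 54 microarrays of a study of 6 mouse strains. The 6 arrays were those whose labels gave hippocampus as the tissue and BalbC/J or C57BL6/J as the strain. Each strain had 3 arrays, 1 of mice that had been tested for prepulse inhibition and 2 of untested mice. In prepulse inhibition a soft sound given shortly before a loud one makes an animal startle less. All mice were males and were killed at postnatal day 60, after testing from day 50 for 6 of the 12 mice of a strain, and the labels give no other treatment and no allele beyond the strain. Each array carried hippocampal tissue pooled from 3 mice, with left and right hemispheres balanced over the set. The pools, not the mice, were therefore the replicates. A p-value here reflects only how far such pools, over all 6 strains together, varied on their arrays. The other 12 hippocampus arrays came from C3H HeJ, C57BL10/J, C57BLKS/J and C57L/J mice, 3 per strain, and served to place both strains among 6. The striatum and brainstem of the same strains were also measured, with 3 arrays per strain and tissue.

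The hippocampus holds the granule cells of the dentate gyrus, which receive input from the entorhinal cortex, and the pyramidal cells of the CA fields, to which the granule cells project. Granule cells go on being born in adult rodents. Oligodendrocytes wrap axons in myelin, microglia are the resident immune cells, and both are spread through the tissue. Inbred strains differ at many fixed sites in their genomes, and such a site may change how much of a transcript is made. It may also change whether a short array probe binds the transcript, and an array does not separate these.

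The values were log2 expression levels per probe set as deposited, so 1 unit is a doubling. The medians of the 6 arrays lay between 4.53 and 4.72. Each array correlated best with another of its own strain, with Pearson correlations across genes of 0.998 to 0.999 within the strains and 0.993 to 0.994 between them. The median standard deviation of a gene was 0.0687 among the BalbC/J arrays and 0.118 among the C57BL6/J arrays, so the C57BL6/J pools were the more variable set. Granule cell markers averaged 8.63 in BalbC/J and 9.11 in C57BL6/J hippocampus, against 6.31 and 6.29 in the striatum of these strains. Markers of CA1 averaged 9.74 and 9.78 in hippocampus, against 6.61 and 6.47 in striatum, and markers of striatal neurons were lower in hippocampus (7.78 and 7.69) than in striatum (13.3 in both strains), as the tissue labels have it.

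Of 12315 genes tested, 1854 differed between BalbC/J and C57BL6/J hippocampus, which is 15.1% of those tested (limma's moderated test on the 18 hippocampus arrays, Benjamini-Hochberg adjusted p under 0.05). BalbC/J was higher for 775 genes (6.29%) and lower for 1079 (8.76%), a split of 41.8% higher that became 49.2% after quantile normalization. Most differences were small. The median size among called genes was 0.43 on the log2 scale, while the median standard error over all genes tested was 0.0911. A difference over 2-fold was called for 225 genes (1.83%), with 92 higher (0.747%) and 133 lower (1.08%) in BalbC/J. The 3 arrays of one strain lay wholly above the 3 of the other for 3681 of the tested genes (29.9%), for 1801 of the 1854 called genes and for 224 of the 225 over 2-fold. Values are given below in the order tested pool, first untested pool, second untested pool, and a difference is BalbC/J minus C57BL6/J on the log2 scale with its standard error. That error rests on the spread of all 18 hippocampus arrays, not of the 6 shown. It can be too small where these 2 strains varied more than the others. For Zhx2 the SD was 0.66 in BalbC/J and 0.06 in C57BL10/J.

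**Figure D1:**
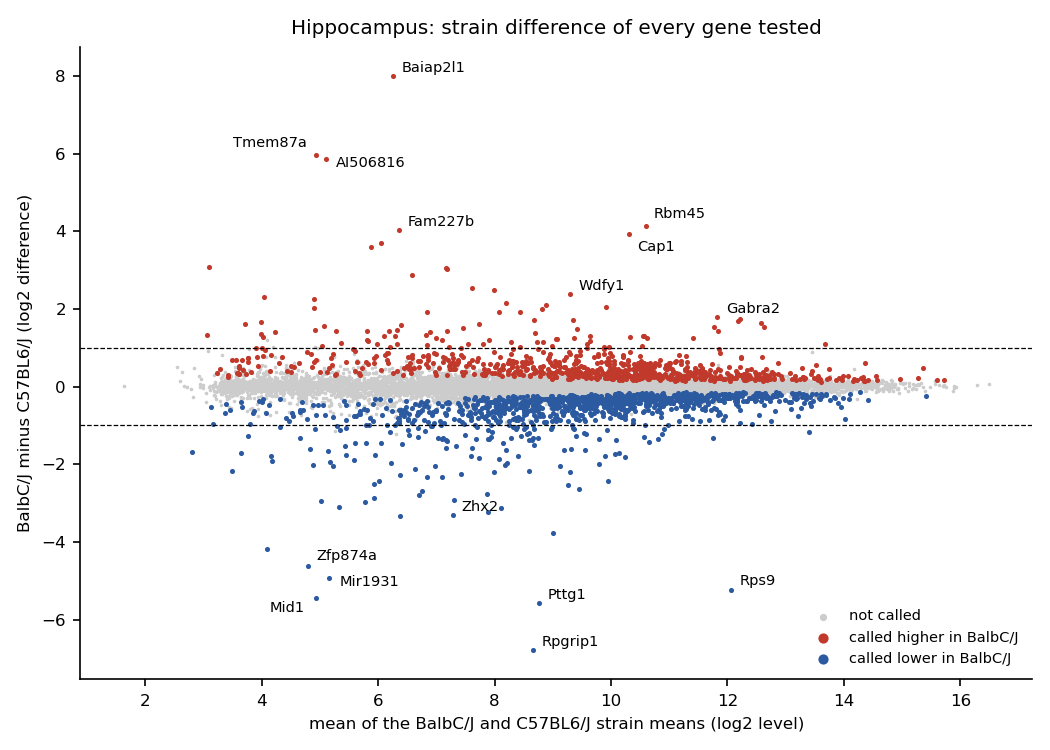
Each point is 1 of the 12315 genes tested, placed by its mean log2 level over the BalbC/J and C57BL6/J hippocampus arrays (horizontal axis) and by its log2 difference, BalbC/J minus C57BL6/J (vertical axis). Red points were called higher and blue points lower in BalbC/J, grey points were not called, and dashed lines mark a 2-fold difference. The largest differences, 8.0 for Baiap2l1 and -6.79 for Rpgrip1, stand far from the cloud of genes around 0.

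The gene furthest above in BalbC/J was Baiap2l1, which encodes an adaptor that links membranes to the actin skeleton. Its levels were 10.35, 10.12 and 10.29 in BalbC/J and 2.16, 2.36 and 2.23 in C57BL6/J, a difference of 8.0 ± 0.09 (adjusted p = 7.10e-18). All 3 C57BL6/J arrays lay below the 40th percentile of their array, the level used as a floor, so the difference is between a clear signal and the low end of the scale. C3H HeJ averaged 9.74 for this gene and the remaining strains 2.22 to 2.24. Rbm45, an RNA-binding protein, had 11.70, 13.47 and 12.81 in BalbC/J against 8.37, 8.77 and 8.43 in C57BL6/J (4.13 ± 0.43, adjusted p = 8.01e-06). Its BalbC/J pools were spread over more than 1 unit and still lay clear of C57BL6/J. Fam227b differed by 4.03 ± 0.15, Abhd1, a hydrolase, by 3.70 ± 0.24, and Cfap54, a protein of the ciliary axoneme, by 3.60 ± 0.27. Sstr1, a receptor for somatostatin, had 3.59, 5.70 and 4.64 in BalbC/J against 1.43, 1.67 and 1.60 in C57BL6/J (3.08 ± 0.43, adjusted p = 1.41e-04), with all 3 C57BL6/J arrays below the floor. Col11a1, a fibrillar collagen chain, had 8.69, 8.53 and 8.87 in BalbC/J against 5.11, 5.66 and 6.14 in C57BL6/J (3.06 ± 0.21, adjusted p = 6.03e-08). The Col11a1 groups did not overlap, and C3H HeJ (9.30), C57BLKS/J (8.68) and C57L/J (8.27) averaged near BalbC/J while C57BL10/J (5.86) averaged near C57BL6/J. Tmem87a, AI506816 and Cap1 completed the 10 largest positive differences, at 5.95, 5.86 and 3.93. For Tmem87a and AI506816 all 3 C57BL6/J arrays lay below the floor, so both differences reach the low end of the scale.

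Pttg1, which encodes securin, the inhibitor of the protease that parts sister chromatids, was among the genes lowest in BalbC/J. It had 6.01, 5.98 and 5.97 in BalbC/J against 11.21, 12.27 and 11.16 in C57BL6/J (-5.56 ± 0.23, adjusted p = 2.30e-10). C57BLKS/J averaged 11.45, near C57BL6/J, and the other 3 strains 6.34, 5.99 and 6.06, near BalbC/J. Mtmr7, a phosphatase of inositol lipids, had 7.28, 6.46 and 7.64 in BalbC/J against 10.81, 10.93 and 10.92 in C57BL6/J (-3.77 ± 0.20, adjusted p = 3.84e-09). Zhx2, a transcriptional repressor, had 5.42, 6.36 and 5.10 in BalbC/J against 9.04, 8.83 and 8.92 in C57BL6/J (-3.30 ± 0.21, adjusted p = 3.87e-08). Zhx2 is known as a gene with reduced expression in the liver of BALB/cJ mice, where alpha-fetoprotein stays on after birth. In hippocampus the other 4 strains averaged 8.50 to 8.89 for Zhx2, so BalbC/J alone was low. Myo7a, an unconventional myosin of sensory hair cells, had 1.90, 2.25 and 1.85 in BalbC/J, below the floor on all 3 arrays, against 6.12, 6.22 and 6.17 in C57BL6/J (-4.17 ± 0.20). Mir1931, Zfp874a and Gm26782 were lower by the same test at -4.92, -4.63 and -3.34. All 3 BalbC/J arrays lay below the floor for Mir1931 and Zfp874a, and the Mir1931 value is that of the probe set carrying this symbol, not a measure of the mature miRNA. Rpgrip1 (-6.79) and Rps9 (-5.22), which completed the 10 largest negative differences with Mid1 (-5.43), had a further probe set that was not called, at 0.04 for Rpgrip1 and -0.08 for Rps9.

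How far a gene's probe sets bore each other out was counted on 22659 probe sets, of which 3311 were called (14.6%). Of the called genes, 1016 had another probe set tested. At least 1 of these was called in the same direction for 424 genes (41.7%), no other was called for 533, and at least 1 was called in the opposite direction for 78. Among genes over 2-fold with another probe set the same direction was met for 60 of 94 (63.8%). Wdfy1, an endosomal protein, was among the genes with full agreement of probe sets and had 10.38, 10.58 and 10.53 in BalbC/J against 7.93, 8.22 and 8.16 in C57BL6/J (2.39 ± 0.10). Alad, an enzyme of haem synthesis, had 9.87, 9.93 and 10.02 in BalbC/J against 7.46, 7.83 and 8.17 in C57BL6/J (2.11 ± 0.18). Gabra2, the alpha2 subunit of the GABA-A receptor, had 12.69, 12.65 and 12.82 in BalbC/J against 10.58, 11.13 and 11.09 in C57BL6/J (1.79 ± 0.11, adjusted p = 3.44e-08). The initiator caspase Casp9 (2.00 ± 0.09) and the G protein subunit Gnb1 (1.73 ± 0.25) were higher in BalbC/J in the same way. On the lower side, Mcm6, a subunit of the replicative helicase, had 5.60, 5.15 and 6.76 in BalbC/J against 8.63, 8.89 and 8.75 in C57BL6/J (-2.92 ± 0.27). The glycogen genes Ppp1r3e, a targeting subunit of protein phosphatase 1, and Phkg1, a catalytic subunit of phosphorylase kinase, were lower in BalbC/J by the same rule, at -2.86 ± 0.31 and -2.26 ± 0.14. So were Dmp1, a matrix protein of bone and tooth (-3.10 ± 0.36), and 1500004A13Rik (-3.23 ± 0.16).

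Set against the mean of the other 4 strains, BalbC/J differed for 1694 genes (13.8%) and C57BL6/J for 918 (7.45%). These counts were 1015 without the tested BalbC/J array and 389 without the second untested C57BL6/J array. These counts share the 12 arrays of those strains. The 3 BalbC/J arrays lay outside the range of all 15 other hippocampus arrays for 528 tested genes (4.29%), and the 3 C57BL6/J arrays did so for 195 (1.58%). Within the 1854 called genes, BalbC/J stood apart in this way for 417, with 193 above and 224 below, and C57BL6/J for 139. Of the 225 genes over 2-fold, the C3H HeJ mean was nearer to BalbC/J for 159, the C57BLKS/J mean for 66, the C57L/J mean for 62 and the C57BL10/J mean for 26. Beside Baiap2l1, AI506816, Fam227b, Abhd1, Mcm6, Mtmr7 and Zhx2, the genes with BalbC/J apart included Thbs4, a thrombospondin of the extracellular matrix, and Slc17a7, the vesicular glutamate transporter VGLUT1. Apart means only outside the range of the other arrays. For Baiap2l1, Abhd1 and Mtmr7, C3H HeJ averaged 9.74, 7.16 and 7.94, near BalbC/J (10.25, 7.89 and 7.12). The C57BL6/J means of these were 2.25, 4.19 and 10.89. Thbs4 had 5.71, 5.79 and 4.42 in BalbC/J against 8.33, 7.82 and 8.11 in C57BL6/J (-2.78 ± 0.42, adjusted p = 2.90e-04). Zfp458 (3.02) and Gm1976 (-3.13) also had BalbC/J apart, and for Zfp458 a further probe set at 0.08 was not called.

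C57BL6/J stood apart for Mid1, Wdfy1, Gabra2, Nnt and Sfrp1 among others. Mid1, an X-linked ubiquitin ligase that sits at the pseudoautosomal boundary of the mouse X, had 2.21, 2.22 and 2.19 in BalbC/J, below the floor, against 8.14, 6.78 and 8.01 in C57BL6/J (-5.43 ± 0.25). Nnt, the mitochondrial transhydrogenase that makes NADPH, had 11.22, 11.26 and 11.13 in BalbC/J against 9.71, 9.99 and 9.99 in C57BL6/J (1.31 ± 0.07, adjusted p = 6.58e-09). C57BL/6J mice are known to carry a deletion within Nnt and an intronic deletion in Gabra2 that lowers its expression. The other 4 strains averaged 10.42, 11.11, 11.07 and 10.70 for Nnt in the order C57BLKS/J, C57BL10/J, C57L/J and C3H HeJ. For Gabra2 they averaged 12.64, 12.64, 12.58 and 12.82 in that order. Sfrp1, a secreted inhibitor of Wnt signals, was higher in BalbC/J at 2.87 ± 0.37, and 1 of its 3 other tested probe sets was called the same way. Tmem181a (1.68) and Gas7 (1.53) were also higher in BalbC/J with C57BL6/J apart, and 2810001G20Rik (-2.69), the cadherin Cdh7 (-2.33), Rps4l (-2.03) and Gm13306 (-1.99) lower. For Gas7 none of 3 further tested probe sets was called, and for Cdh7 none of 2.

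**Figure D2:**
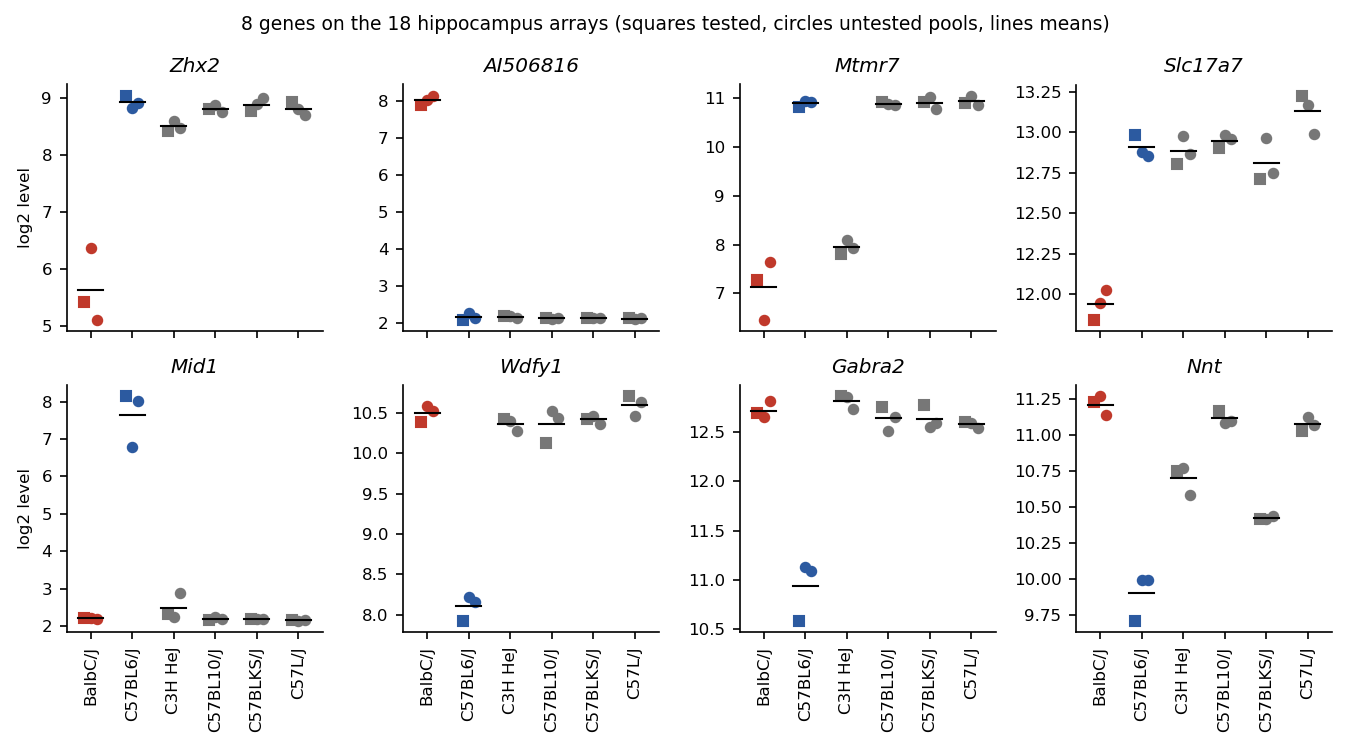
Log2 levels of 8 genes on the 18 hippocampus arrays, by strain in the order BalbC/J, C57BL6/J, C3H HeJ, C57BL10/J, C57BLKS/J and C57L/J. Squares are tested pools, circles untested pools and lines strain means. In the top panels BalbC/J stands apart from the other 15 arrays (Zhx2, AI506816, Mtmr7, Slc17a7) and in the bottom panels C57BL6/J does (Mid1, Wdfy1, Gabra2, Nnt). For Mtmr7 the C3H HeJ mean (7.94) is near that of BalbC/J (7.12).

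Most markers of mature oligodendrocytes were lower in BalbC/J. Of 13 tested, 9 fell and none rose, which is 69.2% called beside 15.1% of all genes tested, with a median difference of -0.71 beside -5.21e-04. Opalin, a membrane protein of central myelin, had 8.77, 9.14 and 8.97 in BalbC/J against 10.13, 10.01 and 10.42 in C57BL6/J (-1.23 ± 0.14, adjusted p = 1.89e-05). Mog, a glycoprotein on the outer face of myelin, had 9.86, 10.16 and 9.72 in BalbC/J against 11.12, 11.16 and 11.35 in C57BL6/J (-1.29 ± 0.19, adjusted p = 1.76e-04). Mag, an adhesion molecule between myelin and axon, had 10.43, 10.44 and 10.21 in BalbC/J against 11.71, 11.16 and 11.50 in C57BL6/J (-1.10 ± 0.13, adjusted p = 3.66e-05). For these 3 genes every BalbC/J pool was below every C57BL6/J pool. The myelin proteolipid Mal (-1.16), Mobp (-0.83), the tight junction protein Cldn11 (-0.74), the fatty acid hydroxylase Fa2h (-0.71), the connexin Gjb1 (-0.65) and Cnp (-0.52) fell too. Ermn (-0.44), Aspa (-0.36), Mbp (-0.02) and Ugt8a (0.29), which makes the galactolipids of myelin, were not called. Between 9 and 10 of the list were called lower under each alternative processing.

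Averaged over the list, the BalbC/J arrays deviated from the mean of the 18 hippocampus arrays by -0.39, -0.17 and -0.44 and the C57BL6/J arrays by 0.41, 0.22 and 0.40. Against the mean of the other 4 strains, 7 of the 13 were lower and 1 higher in BalbC/J, while 5 were higher and none lower in C57BL6/J. Over all 12315 genes tested, 815 were lower and 879 higher in BalbC/J on that scale, and 612 were higher and 306 lower in C57BL6/J. Mog was -0.72 in BalbC/J (adjusted p = 0.00345) and 0.58 in C57BL6/J (adjusted p = 0.0264) on that scale, and Opalin was -0.47 in BalbC/J (adjusted p = 0.00930) and 0.76 in C57BL6/J (adjusted p = 5.33e-04). In striatum 3 of the 13 were lower in BalbC/J and none higher (median -0.35), and in brainstem 1 was lower and 2 higher (median -0.12). Over all genes, 423 of 11847 were lower and 501 higher in striatum, and 461 of 11914 were lower and 1034 higher in brainstem. The difference between hippocampus and striatum was called for none of the 13 markers by limma, and that between hippocampus and brainstem for 3, Mag, Mal and Cnp. Among markers of oligodendrocyte precursors, 2 of 11 fell and 1 rose (27.3%, median -0.20). Those that fell were Sox10, a transcription factor of the whole lineage (-0.54 ± 0.09), and Bcas1, which marks cells about to myelinate (-0.60 ± 0.14). C1ql1 was higher at 0.53, and its call was lost without the tested or the second untested BalbC/J array or the second untested C57BL6/J array, at adjusted p up to 0.103. In bulk tissue, fewer cells of a type and less RNA per cell cannot be told apart. How much fibre-rich tissue each dissection took was not measured.

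**Figure D3:**
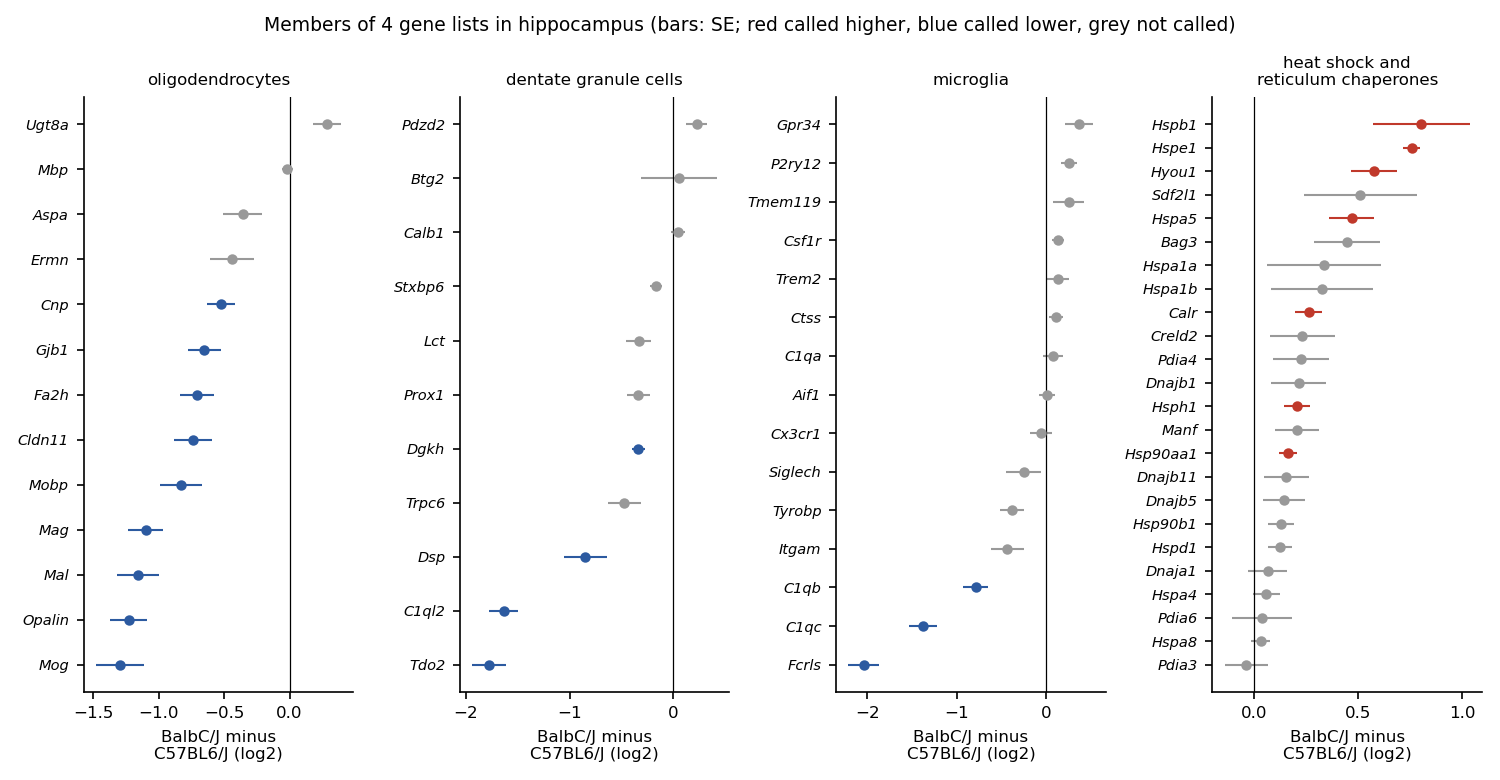
Differences in hippocampus, BalbC/J minus C57BL6/J on the log2 scale, of the tested members of 4 gene lists (oligodendrocytes, dentate granule cells, microglia, chaperones). Points are differences, bars 1 standard error on either side, red marks genes called higher in BalbC/J, blue those called lower and grey those not called. Oligodendrocyte markers lie mostly left of 0 (9 of 13 called lower), and chaperones mostly right of it (7 of 24 called higher).

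Several markers of dentate granule cells were lower in BalbC/J. Of 11 tested, 4 fell and none rose (36.4%, median -0.34). C1ql2, a synaptic organiser that granule cells secrete at their mossy fibre terminals, had 8.47, 8.84 and 8.91 in BalbC/J against 10.45, 10.26 and 10.42 in C57BL6/J (-1.64 ± 0.14, adjusted p = 7.94e-07). Tdo2, which opens the indole ring of tryptophan, had 3.29, 3.04 and 3.48 in BalbC/J against 5.11, 4.86 and 5.17 in C57BL6/J (-1.78 ± 0.16, adjusted p = 1.61e-06), close to the floor in BalbC/J. The diacylglycerol kinase Dgkh fell by 0.34 on the log2 scale. Dsp, a desmosomal protein, was lower at -0.85 ± 0.21, but its call was lost without the tested or the first untested BalbC/J array or the tested C57BL6/J array, at adjusted p up to 0.0652. A brighter Dsp probe set was at -0.14 and not called, and the mean of all its probe sets was at -0.31 (adjusted p = 0.299). Prox1, the transcription factor that specifies granule cells, was -0.34 ± 0.11 (adjusted p = 0.0583), and Calb1, a calcium buffer of mature granule cells, 0.05 ± 0.07 (adjusted p = 0.746), neither called. Only 8 members were also tested in striatum and 9 in brainstem, among them 2 and 3 of the 4 called in hippocampus. None of those tested was called in striatum (median -0.06) or in brainstem (median 0.13), where these genes do not mark granule cells. These medians are over fewer members than the hippocampal one.

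Among 6 tested markers of newborn neurons, 1 was called (16.7%, median -0.07). This was Dcx, the microtubule-binding protein of migrating neuroblasts, with 7.36, 7.02 and 7.29 in BalbC/J against 9.28, 9.34 and 8.97 in C57BL6/J (-1.98 ± 0.15, adjusted p = 2.82e-07). BalbC/J was also below all 12 arrays of the other strains for this probe set. A second Dcx probe set was called at -0.60, and another at -0.01 was not called. Sox11 (-0.25) and Neurod1 (-0.09), transcription factors of immature granule cells, were not called.

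Of 8 markers of CA1 pyramidal cells, 2 were higher and 1 lower in BalbC/J (37.5%, median 0.02). Fibcd1 fell (-0.64 ± 0.13, adjusted p = 0.00312). Wfs1 (0.32) and Man1a (0.26) were higher, with calls lost without single arrays of either strain at adjusted p up to 0.149 for each. Markers of CA2 and CA3 gave 2 lower and none higher of 12 (16.7%, median -0.24), Bok (-0.41) and Cpne4 (-0.33), whose calls were lost without single arrays at adjusted p up to 0.114. Of 8 subiculum and entorhinal markers 1 was lower (12.5%, median 0.05). It was the neuropeptide gene Nts (-0.37), whose call was lost without the tested or the first untested BalbC/J array (adjusted p up to 0.0544). Of 12 interneuron markers 2 were higher, Gad2 (0.23), which makes GABA, and the cannabinoid receptor Cnr1 (0.21), and 1 was lower, Sst (-0.21), the somatostatin gene (25.0%, median 0.01). All 3 interneuron calls were lost without single arrays, at adjusted p up to 0.164.

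Markers of neighbouring tissue were measured as well, since a dissected hippocampus may carry some. Of 10 choroid plexus markers, none was called, but their mean deviated by -1.17, 2.23 and -1.39 on the BalbC/J arrays and by -1.28, -1.50 and 0.17 on the C57BL6/J arrays. The first untested BalbC/J pool thus carried far more of these transcripts than any of the other 5. Thalamic markers, none of 8 called, deviated by 0.58, 0.87 and -0.48 in BalbC/J and by 0.77, -0.18 and -0.21 in C57BL6/J. In neither set did the strains separate. Their part in other differences was not tested. None of 9 striatal and 10 meningeal markers was called, nor the 1 tested blood marker. Of 8 cortical markers 1 was higher, Rorb (0.77), and 1 lower, Lamp5 (-0.40) (25.0%, median 0.09), and both calls were lost without single arrays, at adjusted p up to 0.102 and 0.137. At an unadjusted p under 0.05, 3327 of all genes tested would pass.

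Of 15 microglial markers 3 fell and none rose (20.0%, median 0.02). The list's mean deviation from the 18 hippocampus arrays was -0.17, -0.08 and -0.14 on the BalbC/J arrays. On the C57BL6/J arrays it was 0.03, 0.10 and 0.26. Every BalbC/J array thus lay below every C57BL6/J array in this mean, which includes the 3 called members. The median of 0.02 gives no such shift for the list as a whole. Among all genes tested, the arrays of the strains did not overlap for 29.9%. Fcrls, a scavenger-like receptor found on mouse microglia, had 5.68, 6.13 and 6.05 in BalbC/J against 7.80, 7.71 and 8.48 in C57BL6/J (-2.04 ± 0.17, adjusted p = 7.65e-07). C1qc, a chain of complement C1q, had 7.96, 8.04 and 7.72 in BalbC/J against 9.11, 9.26 and 9.48 in C57BL6/J (-1.38 ± 0.15, adjusted p = 1.65e-05). C1qb, another chain, fell as well (-0.79 ± 0.14, adjusted p = 0.00128). C1qa, the remaining chain of the same protein, was 0.08 ± 0.11 (adjusted p = 0.724), and the microglial receptors Csf1r (0.14 ± 0.07) and Cx3cr1 (-0.05 ± 0.12) were not called. The complement list gave 2 lower, the same C1qb and C1qc, and 1 higher, C1ql1, of 9 (33.3%, median 0.02). C1ql1 is a C1q-like gene, not a complement component, and was also on the precursor list. Its call was lost without single arrays, at adjusted p up to 0.103. Astrocyte markers gave 1 higher and 1 lower of 17 (11.8%, median 0.09). The lower one was Etnppl, which degrades phosphoethanolamine, with 6.11, 7.48 and 5.91 in BalbC/J against 9.61, 9.14 and 9.01 in C57BL6/J (-2.75 ± 0.52, adjusted p = 0.00198). Etnppl averaged less still in C3H HeJ (2.91), C57BLKS/J (3.20) and C57L/J (4.97). The glutamate transporter Slc1a3 was higher at 0.23, lost without single arrays at adjusted p up to 0.161. Of 14 endothelial and pericyte markers 1 rose, Rgs5, a regulator of G protein signals found in pericytes (0.33 ± 0.05; 7.14% called, median -0.01).

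Among genes of synaptic transmission, single members stood apart from lists with few calls. Of 23 genes of synaptic vesicle release, 3 fell and none rose (13.0%, median 0.00). Slc17a7, which loads glutamate into vesicles, had 11.84, 11.95 and 12.03 in BalbC/J against 12.98, 12.88 and 12.86 in C57BL6/J (-0.97 ± 0.08, adjusted p = 2.82e-07). All 3 BalbC/J pools were below every other hippocampus array for it. Vamp1 was lower at -0.41, a call lost when all its probe sets were averaged (adjusted p = 0.0630), and Sv2b at -0.20, lost without single arrays at adjusted p up to 0.215. None of 15 ionotropic glutamate receptor genes was called (median 0.01), nor any of 8 serotonin and monoamine receptor genes (median 0.09). Of 9 metabotropic glutamate receptor genes 1 was lower, Grm2 (-0.35), lost without single arrays at adjusted p up to 0.109 (11.1%, median -0.04). The GABA-A subunits gave 2 higher and 1 lower of 9 (33.3%, median -0.10). Beside Gabra2 these were Gabra5, a subunit of extrasynaptic receptors in hippocampus (-0.42 ± 0.08), and Gabra4 (0.17), the last lost without single arrays at adjusted p up to 0.0907.

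Potassium channel genes gave 2 higher and 6 lower of 34 (23.5%, median -0.05). Kcnj10, the inward rectifier through which astrocytes take up potassium, had 11.21, 11.38 and 11.06 in BalbC/J against 10.09, 9.70 and 9.91 in C57BL6/J (1.31 ± 0.09, adjusted p = 6.62e-08), and the groups did not overlap. The leak channel Kcnk1 (-0.69 ± 0.09), the channel-interacting protein Kcnip3 (-0.53 ± 0.09) and the M-current subunit Kcnq3 (-0.29 ± 0.05) fell. The calls of Kcnj4 (-0.36), Kcna1 (-0.29), Kcnj9 (-0.30) and Kcnc1 (0.20) were lost without single arrays, at adjusted p up to 0.147, 0.138, 0.180 and 0.199, and another Kcnj9 probe set differed by 1.21 the other way. Sodium and calcium channel genes gave 1 higher, the T-type calcium channel Cacna1g (0.63 ± 0.11), and 1 lower, Scn4b (-0.81 ± 0.19), of 22 (9.09%, median -0.09), and Scn4b lost its call without the tested BalbC/J array (adjusted p = 0.0614). Neuropeptide and receptor genes gave 1 higher, Sstr1, and 5 lower of 22 (27.3%, median -0.05). The lower ones included the neuropeptide Y receptors Npy1r (-0.42 ± 0.07), Npy2r (-0.49 ± 0.13) and Npy5r (-0.33 ± 0.09) beside Nts and Sst. Npy2r and Npy5r lost their calls without single arrays, at adjusted p up to 0.123 and 0.106. Of 8 neurotrophin and receptor genes, 2 were lower (25.0%, median -0.12), Gfra2, the co-receptor for neurturin (-0.74 ± 0.13), and Gfra1 (-0.34, lost without single arrays at adjusted p up to 0.174). Of 18 candidates for prepulse inhibition and schizophrenia, 1 was higher (5.56%, median -0.01). It was Tcf4 (0.16), whose call was lost in 10 of 15 alternatives.

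Of the chaperones tested, 7 were higher in BalbC/J, by small amounts. Chaperones fold other proteins, and heat shock factor drives many in the cytosol and mitochondria, while unfolded protein in the endoplasmic reticulum drives another set. Of 24 on the list 7 rose and none fell (29.2%, median 0.21). Against the other 4 strains 10 were higher and none lower in BalbC/J, and none was called in C57BL6/J. Of all 12315 genes tested, 879 were higher and 815 lower in BalbC/J in that comparison, and 612 and 306 in C57BL6/J. Hspe1, the mitochondrial co-chaperone, had 13.06, 12.91 and 12.93 in BalbC/J against 12.22, 12.17 and 12.23 in C57BL6/J (0.76 ± 0.04, adjusted p = 5.28e-09). All 3 BalbC/J pools were above every other hippocampus array for it. Hspa5, the main reticulum chaperone BiP, had 13.54, 13.63 and 13.37 in BalbC/J against 13.33, 12.92 and 12.88 in C57BL6/J (0.47 ± 0.11, adjusted p = 0.00757). Its lowest BalbC/J pool was only just above the tested C57BL6/J pool. Hyou1, another reticulum chaperone, rose by 0.58. The calls of Calr (0.26), Hsp90aa1 (0.16), Hsph1 (0.21) and Hspb1 (0.80) were lost without single arrays, at adjusted p up to 0.0647, 0.108, 0.221 and 0.188. Hspb1 had 7.73, 7.44 and 6.63 in BalbC/J against 6.48, 6.08 and 6.82 in C57BL6/J, and the groups overlapped. The list mean deviated by 0.39, 0.27 and 0.08 on the BalbC/J arrays and by 0.03, -0.07 and -0.02 on the C57BL6/J arrays. The count was 4 without the tested BalbC/J array, the highest of them, and also without the first untested BalbC/J or the second untested C57BL6/J array. It was 3 when only the 6 arrays were fitted and 8 after quantile normalization. In striatum 7 were higher and none lower (median 0.29), and in brainstem 8 were higher and none lower (median 0.23). Over all genes, 501 of 11847 were higher and 423 lower in striatum (median 0.01). In brainstem 1034 of 11914 were higher and 461 lower (median 0.05), so calls there leaned upward in general.

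Promoter sequences were read for 20 of the 24 chaperone genes, over windows of 300 bases that begin 250 bases before a gene's start (RefSeq, GRCm38.p6). A pair of inverted repeats of the heat shock element (GAANNTTC and TTCNNGAA, each its own reverse complement) and the reticulum stress element (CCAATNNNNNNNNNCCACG, or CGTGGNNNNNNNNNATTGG on the other strand) were searched. The first was in 15.1% of 32851 mouse promoter windows (4946) and the second in 0.119% (39). Of the 5 chaperone genes called higher that had a window, 3 held the first and 2 the second, and of the 15 not called, 5 held the first and 3 the second. A gene with several windows was counted if any of them held a match. These counts of genes are therefore not on the same scale as the shares of windows. The windows of Hspe1, Hspa5 and Calr are shown, with matches in capitals. Of these, the call of Calr was lost without single arrays. Hsp90b1, which was not called, held 2 matches to the reticulum element and is not shown.
Hspe1, chr1:55087898-55088197, plus strand: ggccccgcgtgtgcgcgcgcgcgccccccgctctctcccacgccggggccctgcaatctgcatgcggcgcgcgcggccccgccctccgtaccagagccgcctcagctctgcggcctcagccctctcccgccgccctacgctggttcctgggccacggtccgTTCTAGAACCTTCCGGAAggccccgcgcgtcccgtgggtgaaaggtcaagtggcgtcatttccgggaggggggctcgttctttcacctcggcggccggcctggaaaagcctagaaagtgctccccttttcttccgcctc
Hspa5, chr2:34771840-34772139, plus strand: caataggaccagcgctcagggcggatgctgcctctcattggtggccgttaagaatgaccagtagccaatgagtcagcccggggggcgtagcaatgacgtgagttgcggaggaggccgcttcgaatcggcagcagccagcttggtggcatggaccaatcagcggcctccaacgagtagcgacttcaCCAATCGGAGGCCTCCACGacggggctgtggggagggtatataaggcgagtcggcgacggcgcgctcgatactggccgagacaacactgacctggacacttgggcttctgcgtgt
Calr, chr8:84846882-84847181, minus strand: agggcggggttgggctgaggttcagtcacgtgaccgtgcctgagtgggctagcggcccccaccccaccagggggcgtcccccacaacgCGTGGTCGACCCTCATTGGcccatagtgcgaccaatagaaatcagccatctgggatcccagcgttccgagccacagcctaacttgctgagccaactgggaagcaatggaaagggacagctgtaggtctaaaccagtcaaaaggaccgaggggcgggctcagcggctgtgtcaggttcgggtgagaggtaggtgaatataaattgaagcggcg
In the Hspe1 window 3 heat shock matches overlapped each other, beginning 89, 84 and 79 bases before the start. Hspe1 and Hspd1, the mitochondrial chaperonin it works with, are known to be transcribed away from each other from a shared promoter, and a window of Hspd1 held the same 3 matches 144, 139 and 134 bases before its start. Hspd1 was 0.12 ± 0.06 and not called (adjusted p = 0.188). The reticulum element began 65 bases before the Hspa5 start and 162 bases before the Calr start. A match describes letters in a reference genome and was not measured as binding, and BalbC/J sequence was not used.

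Genes that respond to glucocorticoids gave 2 higher and 3 lower of 16 (31.3%, median -0.18). Arrdc2, an arrestin-like gene, fell (-1.94 ± 0.43, adjusted p = 0.00585), as did the clock gene Per1 (-0.52 ± 0.10, adjusted p = 0.00190). Sgk1, a kinase that glucocorticoids induce, was lower at -0.89 ± 0.26, with a call lost without single arrays at adjusted p up to 0.113. Pdk4 (0.66) and Zbtb16 (0.45) were higher, and Zbtb16 lost its call without single arrays at adjusted p up to 0.126. The call of Pdk4 was lost when only the 6 arrays of both strains were fitted (adjusted p = 0.0717). Clock genes gave 2 higher, Rorb and Dbp (0.37), and 2 lower, Per1 and Bhlhe40 (-0.34), of 18 (22.2%, median -0.04). Dbp and Bhlhe40 lost their calls without single arrays, at adjusted p up to 0.0741 and 0.0563. Of 18 activity-regulated genes 1 rose, the AP-1 member Fosl2 (0.49 ± 0.08, 5.56%, median -0.01). The sources used here do not give the hour of death.

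Genes known to vary between inbred strains gave 6 higher and 2 lower of 12 (66.7%, median 0.20). Wdfy1, Cap1, Nnt, Gabra2, Alad and Ide (0.20) were higher, and Erdr1 (-1.70) and Kcnj9 lower. The call of Ide was lost in 3 of 15 alternatives and was at 0.09 with all probe sets averaged (adjusted p = 0.419). That list was drawn up with such strain differences in view, so its share is no independent evidence. Glutathione and redox enzymes gave 5 higher and 2 lower of 29 (24.1%, median 0.03). Beside Nnt, the glutathione transferase Gsta4 (0.66 ± 0.07) and the reductase Gsr (0.62 ± 0.09) rose and the transferase Gsto1 fell (-0.72 ± 0.09). Txnrd1 (0.31) was higher, Gstm5 (-0.27) lower with a call lost without single arrays (adjusted p up to 0.117), and Prdx2 (0.30) higher although another of its probe sets was at -4.03. With all probe sets averaged Txnrd1 was at 0.12 and not called (adjusted p = 0.0979). Of 37 genes on the respiratory chain list 3 were higher and 2 lower (13.5%, median 0.04). The list included Nnt, which is not a subunit of the chain. Beside Nnt the calls were Cox7c (0.43), Cox6b1 (0.17), Ndufa9 (-0.24) and Ndufv2 (-0.21). Each of these was lost without single arrays, at adjusted p up to 0.142, 0.0700, 0.0739 and 0.0848. Sterol synthesis gave 2 lower of 17 (11.8%, median -0.11), Sc5d (-0.60) and Cyp51 (-0.38), and Cyp51 lost its call without each single array, at adjusted p up to 0.135. With all probe sets averaged Sc5d was at -0.13 and not called (adjusted p = 0.175). Of 11 genes of metal handling 1 was higher (9.09%, median -0.13), the iron exporter Slc40a1 (0.65), lost without the tested C57BL6/J array (adjusted p = 0.0546).

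Enzymes that use pyridoxal phosphate, the active form of vitamin B6, gave 2 higher and 4 lower of 25 (24%, median 0.02). Beside Etnppl these included Ddc, which makes dopamine and serotonin from their precursors (-0.86 ± 0.19), Shmt1 (0.51), Gad2 and Shmt2 (-0.46, lost without single arrays at adjusted p up to 0.146). With all probe sets averaged Shmt1 was at 0.15 and not called (adjusted p = 0.233). The member with the least settled value was Pdxdc1, a decarboxylase-like gene on chromosome 16 with 4 probe sets. The brightest had 7.74, 7.63 and 8.11 in BalbC/J against 9.07, 8.84 and 8.81 in C57BL6/J (-1.08 ± 0.15, adjusted p = 1.52e-04). Another had 2.94, 3.02 and 3.01 in BalbC/J against 9.96, 9.73 and 10.07 in C57BL6/J, a difference of -6.93. A further one ran the opposite way, with 10.59, 10.73 and 10.75 in BalbC/J against 2.70, 2.81 and 2.75 in C57BL6/J, a difference of 7.94. The last had a difference of -0.76, and with all probe sets averaged Pdxdc1 was not called (adjusted p = 0.0689). Of 13 genes tested in its neighbourhood 3 were lower (23.1%, median -0.15). They were Pdxdc1, the RNA-degrading Parn, with 6.90, 7.32 and 7.30 in BalbC/J against 8.32, 8.17 and 8.16 in C57BL6/J (-1.04 ± 0.14), and the transporter Abcc1 (-0.51 ± 0.09).

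Both immune lists had shares of calls below that of all genes tested. Of 10 genes of antigen presentation 1 was lower, H2-D1 (-0.73, 10%, median 7.99e-04). BalbC/J and C57BL6/J are known to differ in MHC haplotype, and of the 7 other H2-D1 probe sets tested 1 was called the same way, 3 were not called and 3 were called the opposite way, by up to 5.58. Of 18 interferon-related genes 2 were lower (11.1%, median -0.02), the ubiquitin ligase Trim25 (-0.61) and Ifit3 (-1.01), both lost without single arrays at adjusted p up to 0.103 and 0.178. Of 3 tested Y-linked genes 1 was lower, the translation factor gene Eif2s3y (-0.51 ± 0.11, 33.3%, median -0.29), whose call was lost when only the 6 arrays were used (adjusted p = 0.0546). Both tested genes at the pseudoautosomal boundary, Mid1 and Erdr1, were lower (median -3.56). Zinc finger genes of the Zfp series were tested for 290 members, of which 18 were higher and 34 lower (17.9%, median 0.00), with differences of -4.63 to 3.02.

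The place of called genes along the chromosomes was described without a test. A tested neighbour on the chromosome was called for 35.0% of called genes and for 25.7% of genes not called. For genes over 2-fold the neighbour was over 2-fold for 7.62%, against 3.47% of the others. The longest runs of neighbours called in the same direction held 4 genes, and there were 9 such runs. One was made of Zfp74, Zfp14, Zfp82 and Zfp566 on chromosome 7 (-0.61 to -0.31), and another of Zfp943, Zfp994, Zfp944 and Zfp758 on chromosome 17 (-1.36 to -0.39). Members of a zinc finger cluster are much alike, and array probes may not tell them apart. Over the autosomes the share of tested genes called ran from 11.1% on chromosome 15 to 20.4% on chromosome 18.

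The same strain difference was measured in 2 other brain regions. In striatum 946 of 12320 genes were called (7.68%), and in brainstem 1534 of 12484 (12.3%). Of the genes called in hippocampus and tested in striatum, 561 of 1820 were called the same way there and 7 the opposite way, and of those tested in brainstem, 627 of 1822 and 18. Of genes over 2-fold in hippocampus, 152 of 213 were called the same way in striatum and 161 of 216 in brainstem. The difference between tissues was itself tested. The BalbC/J minus C57BL6/J difference was not the same in hippocampus and striatum for 123 of 11847 genes (1.04%), and in hippocampus and brainstem for 144 of 11914 (1.21%). For 15 genes both of these tests were called with the same sign, 8 positive and 7 negative. The tissues of a strain came from a shared group of 12 mice, and the arrays were taken as independent. Each gene had a single spread for all tissues in this fit, so tissues where it varied little lowered its standard error. For Arsj the standard error was 0.28 for hippocampus minus striatum and 0.30 for the hippocampal difference alone. The test is thus too confident for a gene like Arsj, whose arrays varied mainly in hippocampus.

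Col11a1 had the largest difference between tissues of the 15. In hippocampus it averaged 8.70 ± 0.17 (SD, n = 3) on the BalbC/J arrays and 5.64 ± 0.52 (SD, n = 3) on the C57BL6/J arrays, and SDs of 3 arrays follow each mean below. In striatum it averaged 4.0 ± 0.70 in BalbC/J and 4.14 ± 0.31 in C57BL6/J, and in brainstem 7.05 ± 0.40 and 7.36 ± 0.19. The strains thus overlapped outside hippocampus, and the excess of the hippocampal difference was 3.20 ± 0.52 over striatum (limma adjusted p = 2.39e-04) and 3.38 ± 0.52 over brainstem (adjusted p = 1.13e-04). Fbn2, a fibrillin of microfibrils, averaged 6.95 ± 0.48 in BalbC/J and 5.65 ± 0.26 in C57BL6/J hippocampus, with differences of -0.07 in striatum and 0.12 in brainstem. Arsj, an arylsulfatase, averaged 4.64 ± 0.45 in BalbC/J and 6.54 ± 0.59 in C57BL6/J hippocampus, with differences of -0.02 in striatum and -0.06 in brainstem. Its level was 3.57 ± 0.05 in BalbC/J and 3.59 ± 0.06 in C57BL6/J striatum and 3.57 ± 0.07 in BalbC/J and 3.63 ± 0.08 in C57BL6/J brainstem, near the low end of the scale, where a strain difference would be hard to measure. The elastic fibre protein Fbln5 (1.28), the ubiquitin ligase Rnf121 (1.18) and Shld1 (1.01), a factor of DNA repair, were higher in BalbC/J hippocampus. Tmem125 (-2.04), the kinase Sgk2 (-1.70) and Tmppe (-1.24) were lower. Sgk2 lay below the floor on all 3 BalbC/J hippocampus arrays. Tmem125 was above the floor on 2 of these 3 arrays, with a mean of 4.20 ± 0.98. Fbln5 averaged 3.38 ± 0.18 in C57BL6/J hippocampus, close to the floor. Tmppe averaged 3.12 ± 0.20 in BalbC/J and 3.31 ± 0.08 in C57BL6/J striatum, also close to the floor, where a strain difference would be hard to measure.

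Some of the 15 had opposite signs across tissues. Matn2, a matrilin of the extracellular matrix, was higher in BalbC/J hippocampus (0.49) and differed by -1.0 in striatum and -1.36 in brainstem. Its hippocampal call was lost without single arrays, at adjusted p up to 0.0816. Npr2, the receptor for C-type natriuretic peptide, was lower in BalbC/J hippocampus (-0.55) and differed by 0.37 in striatum and 0.30 in brainstem. Ccdc122 averaged 5.77 ± 0.01 in BalbC/J and 5.91 ± 0.14 in C57BL6/J hippocampus and was not called there, while it differed by -1.44 in striatum and -1.61 in brainstem. Both tests of Ccdc122, Col11a1 and Fbn2 were called in all 16 alternatives tried, while that of Shld1 against brainstem was lost in 14.

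**Figure D4:**
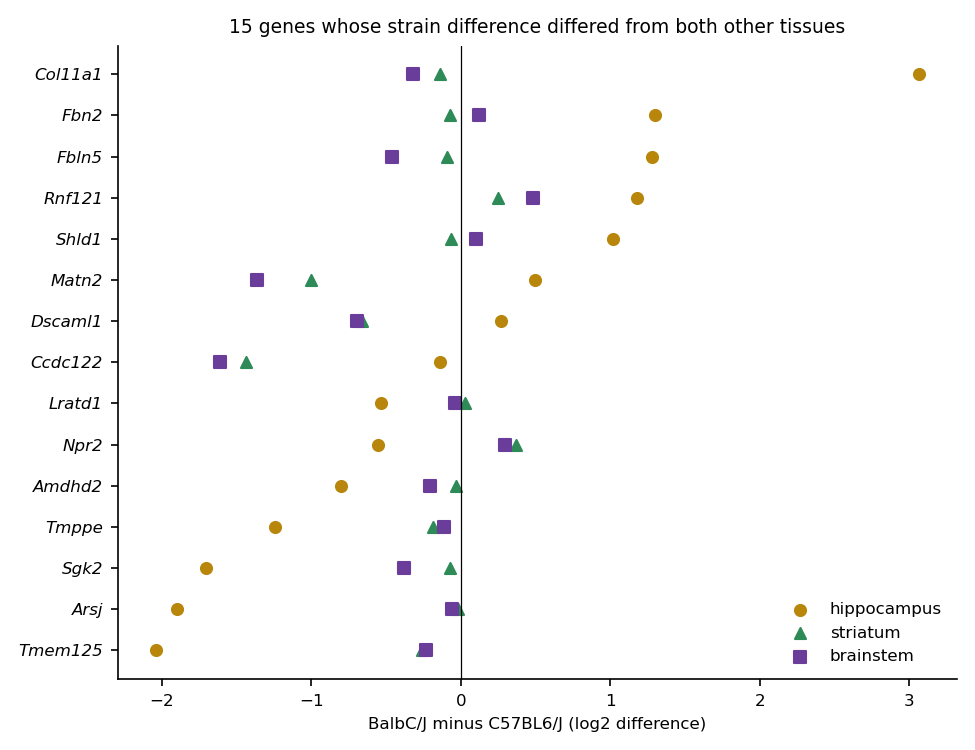
Log2 differences, BalbC/J minus C57BL6/J, of 15 genes in hippocampus, striatum and brainstem. These are the genes whose hippocampal difference departed from both other tissues with the same sign. Col11a1 is at 3.06 in hippocampus and near 0 elsewhere, while Ccdc122 is at -0.14 in hippocampus, -1.44 in striatum and -1.61 in brainstem.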

How the data were processed

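The authors deposited log2 expression levels per probe set of 3′ Affymetrix arrays, already normalized. The submitters' processing notes name R 2.6.1, affy 1.16.0, RMA, GCRMA 2.10.0 and limma 2.12.0, and do not say which method made the values. Neither hybridization batch nor scan date was given in the sources used here, and none could be tested. TRIzol was used to extract the RNA of each pool, per the labels. The number of arrays, 3 per strain and tissue, limits the precision.

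Comparisons were computed anew (R 4.3.3, limma 3.58.1). Of the 45101 probe sets, 64 were controls, 34945 had 1 gene symbol, 932 had several and 9160 had none in the platform table, and 34741 were matched to RefSeq by Entrez identifier. For each of the 18193 genes the probe set with the highest mean over the 54 arrays was used. Genes were tested if at least 3 hippocampus arrays had them above the 40th percentile of the array, which left out 5878. The model had terms for strain and for testing on the 18 hippocampus arrays, with an intensity trend. Tests were two-sided and a call was an adjusted p under 0.05 over all genes tested. Differences between tissues were fitted on all 54 arrays. A list's share and median are over its tested members, 560 of 729 listed genes, 642 of which had a probe set. The fit was also run on simulated data, with independent noise and the same spread of a gene in every strain and tissue. Such data cannot show how unequal spread affects the calls.

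Named were the 10 highest and 10 lowest differences, the 8 highest and 8 lowest among genes whose probe sets were all called the same way, the 4 called members of a list with the smallest p, the 5 genes with the smallest p in both tests between tissues, and the 5 highest and 5 lowest among genes with 1 strain apart. Other called members were named after their values were seen, to complete a count. Members, lists and tests were chosen with earlier results of these data known. Alternatives were the 6 arrays only, no testing term, a replicate block, other normalization, probe set and filter choices, no trend, and leaving out each array.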

Additional observations from a re-analysis of the deposited data

Results flagged for a closer look

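For 15 genes the BalbC/J minus C57BL6/J difference in hippocampus departed from that in striatum and from that in brainstem with the same sign, each by limma's test of the difference between tissues (Benjamini-Hochberg adjusted p under 0.05). The values are the hippocampal difference minus that in striatum, then minus that in brainstem, on the log2 scale. Positive values were found for Col11a1 (3.20 and 3.38), Matn2 (1.5 and 1.86), Fbn2 (1.37 and 1.18) and Fbln5 (1.37 and 1.74). Positive values were also found for Ccdc122 (1.30 and 1.48), Shld1 (1.08 and 0.91), Rnf121 (0.93 and 0.70) and Dscaml1 (0.93 and 0.96). Negative values were found for Arsj (-1.88 and -1.84), Tmem125 (-1.78 and -1.80), Sgk2 (-1.63 and -1.32) and Tmppe (-1.05 and -1.13). Negative values were also found for Npr2 (-0.92 and -0.85), Amdhd2 (-0.76 and -0.59) and Lratd1 (-0.56 and -0.50). Tmem125, Sgk2 and Fbln5 averaged lower in hippocampus than in brainstem in both strains, and Col11a1 in hippocampus of BalbC/J averaged higher than in either other tissue of that strain. Leaving out single arrays or changing the processing ended the call against brainstem for Shld1 in 14 of 16 alternatives and for Amdhd2 and Lratd1 in 10 each. The call against brainstem was also lost for Sgk2 in 8 and for Tmem125 in 5. Against striatum, calls were lost for Tmem125 and Lratd1 in 6 each and for Shld1 in 5. Some other genes of the 15 lost calls in fewer alternatives.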

How the results depend on the processing

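The 1854 genes called became 1238 when only the 6 arrays were fitted (496 higher, 742 lower, 1161 of them shared), 1842 without the testing term, 1931 after quantile normalization, 1284 after median centring, 1824 with all probe sets averaged, 1650 with no filter, 1854 with the filter set on either strain and 1798 without the intensity trend. With a replicate block 1798 genes were called, of which 1768 were shared. Same-numbered arrays did not deviate together (correlations of -0.07, -0.15 and -0.03). With 3 arrays per strain these correlations cannot settle whether the numbers pair the samples. Leaving out single arrays gave 1259 to 2127 calls, the lowest without the second untested C57BL6/J array and the highest without the first, with 531 to 804 higher and 711 to 1323 lower. The cause was not tested. Leaving out single arrays gave 1015 to 1287 calls for BalbC/J against the 4 other strains and 389 to 976 for C57BL6/J, the lowest without the tested BalbC/J and the second untested C57BL6/J array. Between hippocampus and striatum 123 calls became 58 with only the 12 arrays and 64 to 141 without single arrays. Between hippocampus and brainstem 144 became 455 and 86 to 243. With all probe sets averaged the sign turned for H2-D1 (1.30), Kcnj9 (0.23) and Prdx2 (-1.86), whose probe sets disagree. Averaging also ended the calls of Rorb (0.27, adjusted p = 0.373), Zbtb16 (0.20, 0.226), Cpne4 (-0.26, 0.270), Ndufv2 (-0.08, 0.302), Shmt2 (-0.19, 0.0901) and Kcna1 (-0.13, 0.105). Of 140 called genes followed through the alternatives, 86 were called in each and 54 lost a call in at least 1, 44 of them when a single array was left out (35, 33 and 21 calls without the tested, first and second untested BalbC/J array, and 28, 15 and 32 without the same C57BL6/J arrays). The number of arrays, 3 per strain, limits the precision, with a median standard error of 0.0911.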
